A study of Mus musculus with 7 samples.

Results

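The genes of the cytosolic ribosomal proteins were followed across WT and dyW muscle fibers. They were chosen by symbol alone, as every row whose name has the form of *Rpl*, *Rps*, *Rplp* or *Rpsa* with a number and at most a short suffix, and 84 of the 31531 genes in the table qualified. Of these, 46 encode proteins of the large subunit, 31 encode proteins of the small subunit and 5 are expressed paralogues (*Rpl3l*, *Rpl7l1*, *Rpl22l1*, *Rps4l* and *Rps27l*). The other 2, *Rpl6l* and *Rpl32l*, are processed pseudogenes in the GENCODE annotation, which the symbol pattern lets through. The 46 and 31 together are termed the 77 core genes. The study asked how loss of laminin-α2 alters gene expression in fetal muscle before birth. RNA came from 4 WT and 3 dyW fetuses at E17.5, with 1 SMART-seq2 library per fetus. The dyW fetuses carry 2 disrupted copies of *Lama2*, the gene of the laminin-α2 chain, in every cell, are of the C57BL/6 strain and serve as the mouse model of LAMA2-CMD, whereas WT fetuses carry intact *Lama2*. No agent was given to either group. Fibers were freed from the epaxial muscles of the back with dispase and collagenase and caught on a strainer, so that cells attached to them could be carried along. In bulk samples of this kind, fewer cells of a type and less RNA per cell cannot be told apart.

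The cytosolic ribosome joins a small subunit, which reads the mRNA, with a large subunit, which forms the peptide bonds. Each subunit is a scaffold of ribosomal RNA to which a fixed set of small, mostly basic proteins is bound, generally 1 copy of each, so that cells make these proteins in near equal amounts. Their mRNAs are among the most abundant of a growing cell. In mammals they share a short pyrimidine tract at the start of the mRNA, the 5′ TOP motif, through which mTORC1 signaling adjusts their translation. In striated muscle, *Rpl3l* encodes a form of the large subunit protein RPL3 that rises after birth while *Rpl3* declines.

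A pyrimidine run was looked for near the start sites of these genes, because it is a feature the choice by symbol did not use. The search was wider than the TOP motif, which lies at the start of the mRNA itself. The RefSeq promoter table for GRCm38.p6 held 62 of the 84 genes. A run of at least 8 bases that were all C or T and began with C, read on the strand of the gene within 20 bases before to 50 bases after the start, was present in 49 of the 62 (79.0%) and in 6086 of 26963 other genes (22.6%). The windows of 30 bases shown here are those of a kinase target (*Rps6*), a p53 regulator (*Rpl11*), the member with the second highest level per kb (*Rps27*), a member whose share among these genes was higher in each dyW library (*Rpl37*), the muscle paralogue (*Rpl3l*) and a member of very low count (*Rps10*), with the run in capitals. Relative to the annotated start, the run begins at −1 in *Rps6*, 14 in *Rpl11*, −2 in *Rps27*, 28 in *Rpl37*, 31 in *Rpl3l* and −3 in *Rps10*. For *Rplp0* and *Rpsa*, no run of that length was in the window searched and no base is in capitals. The search thus does not settle which of these genes have a TOP motif. Positions are on GRCm38.p6, whereas the counts were made on GRCm39.
Rps6, chr4:86857349-86857378, minus strand: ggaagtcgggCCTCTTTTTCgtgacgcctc
Rpl11, chr4:136053357-136053386, minus strand: cggaagtCTCCCTCTCTCTTCCTgttctcc
Rps27, chr3:90213632-90213661, minus strand: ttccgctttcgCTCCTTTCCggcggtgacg
Rpl37, chr15:5116631-5116660, plus strand: ggcgggggtgCTTTCTCTTCCggtctcttt
Rpl3l, chr17:24727846-24727875, plus strand: tggtggggaggCCCCTTCCTaacctgcagg
Rps10, chr17:27635227-27635256, minus strand: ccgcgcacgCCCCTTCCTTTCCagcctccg
Rplp0, chr5:115559452-115559481, plus strand: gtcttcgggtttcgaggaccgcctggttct
Rpsa, chr9:120127751-120127780, plus strand: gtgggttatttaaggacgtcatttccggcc
The run was a shared feature of most of the genes. No core gene passed the test given below, so whether the run goes with a change was not tested. The median log2 fold change was −0.30 over the 45 core genes that held it and −0.30 over the 12 that were matched and did not hold it.

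*Lama2* itself was at 90.6, 111, 105 and 107 normalized counts in WT1 to WT4. It was at 4.29 in dyW1 and 6.07 in dyW2 but at 140 in dyW3. The library labelled dyW3 thus did not show the low *Lama2* of the other 2. Reads on genes numbered 470804 to 2220813 in the WT libraries and 3663905 to 18297106 in the dyW libraries. The 16 myofiber markers, genes of the contractile apparatus, made up 0.132% to 2.13% of the counts in the WT libraries. They made up 0.00500% in dyW1, where 8 of the 16 were at 0, against 0.529% in dyW2 and 0.511% in dyW3, so that the defining markers of the labelled cell type were near absent from dyW1. In WT1, the 8 cartilage markers made up 18.1% of the counts, against at most 0.220% in any other library, and the cartilage collagen gene *Col2a1* alone took 16.6%. In dyW1, *Spp1*, which encodes the bone matrix protein osteopontin, took 5.35% of the counts. For several members, values without dyW3 or without WT1 and dyW1 are therefore given beside those over 7 libraries.

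The core genes varied as strongly among fetuses of a genotype as between genotypes. The median normalized count of the 77 core genes was 155, 407, 1165 and 806 in WT1 to WT4 and 207, 592 and 680 in dyW1 to dyW3. WT3 stood highest and WT1 lowest, and the dyW libraries lay between them. The highest WT median was 7.54 times the lowest, and the highest dyW median was 3.28 times the lowest. On the log2 scale the medians averaged 8.95 ± 1.28 (SD, n = 4) in WT, against 8.77 ± 0.94 (SD, n = 3) in dyW. WT3 held the highest value of 47 of the 77 core genes and WT4 that of 15, whereas WT1 held the lowest value of 44 and dyW1 that of 30. The 2 libraries with the lowest levels were thus WT1, rich in cartilage markers, and dyW1, near devoid of myofiber markers. Both also lacked most erythroid RNA, since 7 erythroid markers made up 0.00085% of the counts in WT1 and 0.00106% in dyW1, against 1.25% to 9.61% in the other libraries. The part of these markers in the level was not tested. Without WT1 and dyW1, the medians ranged from 407 to 1165 in the 3 WT libraries, and both remaining dyW libraries fell within that range.

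**Figure D1:**
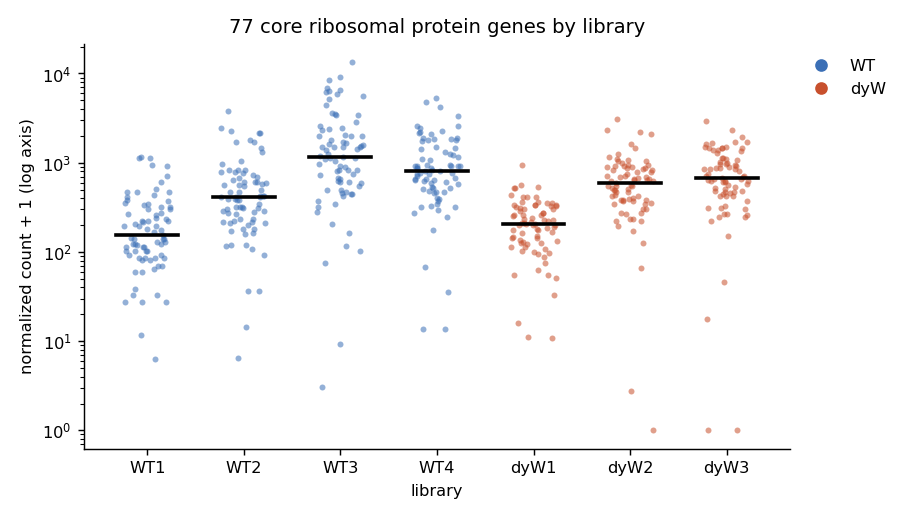
Normalized counts plus 1 of the 77 core genes (log axis) in each of the 7 libraries (horizontal axis), with 1 point per gene, WT in blue and dyW in orange, and the median as a black line. The medians run from 155 in WT1 to 1165 in WT3, and the 3 dyW medians lie between these.

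The share of all counts taken by the 84 genes was higher in dyW on average, but its direction depended on what it was divided by. It was 0.771%, 1.20%, 3.49% and 1.58% in WT1 to WT4 and 1.30%, 2.38% and 3.55% in dyW1 to dyW3. The mean was 1.76% ± 1.20 (SD, n = 4) in WT, against 2.41% ± 1.13 (SD, n = 3) in dyW, and the groups overlapped. Genes of the mitochondrial genome and the 18S rRNA gene took 23.5% to 75.9% of the counts in the WT libraries and 8.06% to 36.5% in the dyW libraries. With these left out of the total, the mean share was 4.74% ± 3.25 (SD, n = 4) in WT, against 3.08% ± 1.46 (SD, n = 3) in dyW. With the 10 most abundant genes of each library left out, it was 5.13% ± 3.27 (SD, n = 4) in WT, against 3.31% ± 1.56 (SD, n = 3) in dyW. No direction between the genotypes can therefore be given for this share. Both subunits moved together. The large subunit genes made up 52.8% to 59.8% of the counts of the 84 genes in the WT libraries and 52.8% to 58.0% in the dyW libraries, with the highest value of each group in WT1 and dyW1.

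**Figure D2:**
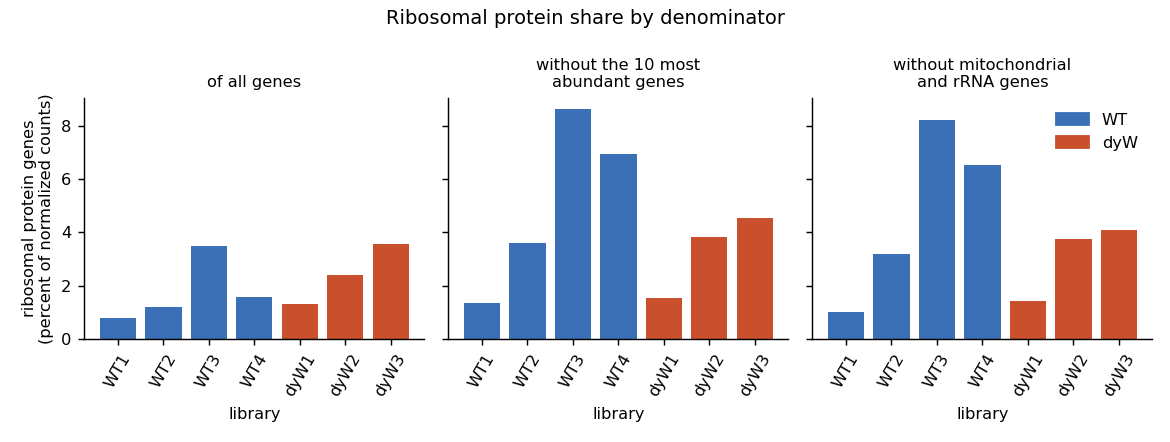
Bars give the share of normalized counts (percent, from 0) taken by the 84 ribosomal protein genes in each library, out of all genes (left), without the 10 most abundant genes of the library (middle) and without mitochondrial and rRNA genes (right), WT in blue and dyW in orange. WT4 rises from 1.58% to 6.94% and 6.54%, whereas dyW3 moves only from 3.55% to 4.55% and 4.09%.

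The filter on low values, a mean of 5 normalized counts, left 83 members, all but *Rpl32l*. Of these, 1 was lower in dyW and 0 were higher. The test was limma on log2(normalized count + 1), adjusted by Benjamini-Hochberg across 25791 genes, with calls made where the adjusted *P*-value was under 0.01 and the log2 fold change exceeded 1.5 in size. Among all genes tested, 18.7% were lower and 0.0659% were higher by the same rule. At an adjusted *P*-value under 0.05 with no fold threshold, 1 member was lower and 0 were higher, against 29.6% and 1.01% of all genes. At an unadjusted *P*-value under 0.05, 4 members were lower and 0 were higher by limma, against 41.5% and 2.81% of all genes. Voom on the recovered reads gave 1 member lower and 0 higher at the first rule, against 23.6% and 0.0194% of all genes. The single member that passed was *Rpl3l*, which cleared the filter through its WT values alone, with a mean of 5.40 normalized counts over the 7 libraries and 0 in dyW, so its call is a description. At the deposited scaling, 3 members did not overlap with all dyW values lower (*Rps2*, *Rpl3l* and the pseudogene *Rpl6l*) and 0 with all dyW values higher, against 31.5% and 3.28% of all genes tested. *Rpl6l* also cleared the filter only through WT, with means of 12.2 in WT and 4.23 in dyW. It rests on 2 to 10 reads in the WT libraries and 9 to 54 in the dyW libraries, so its place here is a description. The members' share was below that of all genes in each of these lower counts. The 2 sets differ in abundance, since 77 of the 83 members but only 6111 of the 25791 genes had a mean of at least 50. In addition, 1 read was worth 2.05 to 5.33 normalized counts in the WT libraries and 0.0974 to 0.488 in the dyW libraries. The part of abundance in these shares was not tested. The members' share was not below that of all genes for every setting of the first rule. Without WT4, limma called 0 members and 0 of all genes in either direction, and at an unadjusted *P*-value under 0.05 it gave 3 members and 8748 genes lower and 0 members and 422 genes higher. Among genes with a mean of at least 50, limma called 0 of 6111 genes and 0 of 77 members by the first rule in either direction. At an adjusted *P*-value under 0.05 it gave 0.0491% of these genes and 0 members lower, with 0 genes higher. At an unadjusted *P*-value under 0.05 it gave 2 members (*Rps27a* and *Rps2*) lower and 0 higher, against 8.77% and 11.7% of these genes.

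The median log2 fold change of the members, dyW minus WT, was −0.25, with 57 members negative and 26 positive, whereas the median of all genes tested was −1.99. It was −0.23 over the large subunit genes and −0.31 over the small subunit genes. Without dyW3 the members' median was −0.59, and without WT1 and dyW1 it was −0.26, with all genes at −2.45 and −2.01. The sign of the members' median depended on single libraries and on the scaling. It was 0.15 without WT3, 0.03 without WT4 and 0.25 without dyW1, with 48, 44 and 57 of the 83 members positive. When every library was brought to the same total, the median of all genes tested moved to −1.24 and that of the members to 0.90. At that scaling, 4 members, among them *Rpl22*, *Rpl30* and *Rpl8*, were higher and *Rpl3l* was lower at an adjusted *P*-value under 0.05, against 4.85% and 20.7% of all genes. Restricting the test to genes with a mean of at least 50 left the members at −0.25 but moved the median of all genes to 0.20, so that the members' median was then the lower of the 2. Single libraries also moved the counts. Without WT1, 6 members, among them *Rplp0*, *Rpl32*, *Rps27a*, *Rps2* and *Rpl3l*, were lower and 0 higher at an adjusted *P*-value under 0.05, against 28.8% and 0.76% of all genes. Without both WT1 and dyW1, 3 members (*Rps27a*, *Rps10* and *Rpl3l*) were lower and 0 higher, against 30.4% and 0.81% of all genes.

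**Figure D3:**
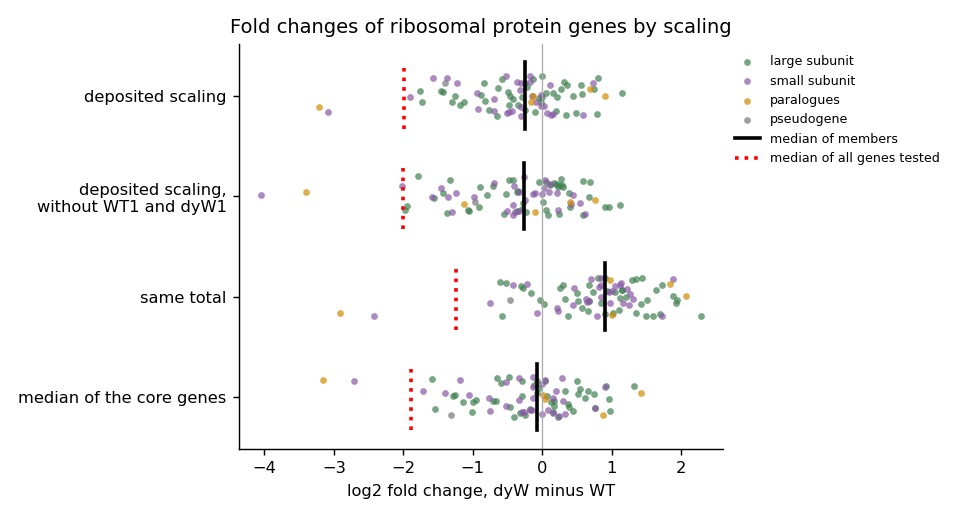
Log2 fold changes, dyW minus WT (horizontal axis), of the 83 members tested, with 1 point per gene colored by role, under the deposited scaling with 7 libraries and without WT1 and dyW1, with every library at the same total, and with every library divided by the median of its core genes. Black lines give the members' medians (−0.25, −0.26, 0.90 and −0.07 from top to bottom) and dotted red lines those of all genes tested (−1.99, −2.01, −1.24 and −1.89).

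None of the large subunit core genes passed the test. *Rpl32* was at 240, 2157, 6412 and 3301 normalized counts in WT1 to WT4 and at 202, 616 and 1343 in dyW1 to dyW3. The groups overlapped through WT1 alone, and the log2 fold change was −1.72 ± 1.10 (SE), with an adjusted *P*-value of 0.26. It was −2.36 without dyW3 (adjusted *P*-value 0.16) and −1.97 without WT1 and dyW1 (adjusted *P*-value 0.055). With every library at the same total it shrank to −0.57 (adjusted *P*-value 0.69). *Rpl41*, which encodes the smallest ribosomal protein and had the highest level of all members per kb of coding sequence (13186 normalized counts per kb on average), was at 256, 1321, 6613 and 2549 normalized counts in WT and at 349, 855 and 1071 in dyW. Its log2 fold change of −1.18 ± 0.99 (SE) had an adjusted *P*-value of 0.39, and was −1.50 without dyW3 and −1.55 without WT1 and dyW1. With every library at the same total it was −0.027. The highest WT value of *Rpl41* was 25.8 times the lowest.

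Apart from the paralogue *Rps4l*, the most positive log2 fold changes belonged to large subunit genes of moderate count, and none passed the test. *Rpl22*, whose protein binds RNA in the nucleus as well and restrains its paralogue *Rpl22l1*, was at 26.7, 91.7, 117 and 173 normalized counts in WT1 to WT4 and at 123, 220 and 243 in the dyW libraries. The 2 highest values were both dyW, and the log2 fold change was 1.15 ± 0.73 (SE) with an adjusted *P*-value of 0.26. *Rpl37* was at 64, 232, 753 and 516 in WT and at 217, 695 and 737 in dyW normalized counts (log2 fold change 0.80 ± 0.89, SE, adjusted *P*-value 0.52). *Rpl30* had a log2 fold change of 0.79 ± 0.63 (SE) with an adjusted *P*-value of 0.36. *Rpl8*, a protein of the peptidyl transferase region, was at 165, 289, 496 and 570 normalized counts in WT and at 206, 885 and 1018 in dyW. Its 2 highest values were dyW2 and dyW3, and its log2 fold change was 0.74 ± 0.71 (SE), with an adjusted *P*-value of 0.45. Without dyW3 the log2 fold changes of *Rpl22*, *Rpl37*, *Rpl30* and *Rpl8* were 0.96, 0.49, 0.46 and 0.32, and without WT1 and dyW1 they were 0.91, 0.67, 0.97 and 1.13, all with adjusted *P*-values of at least 0.13.

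*Rpl3*, which lies near the catalytic center, was at 506, 612, 1670 and 928 normalized counts in WT1 to WT4 and at 409, 1470 and 955 in dyW1 to dyW3. Its means were 929 ± 525 (SD, n = 4) and 944 ± 531 (SD, n = 3). *Rpl5* and *Rpl11*, whose proteins form with 5S rRNA the particle that restrains MDM2, had log2 fold changes of 0.06 ± 0.66 (SE) and −0.63 ± 0.73 (SE), with adjusted *P*-values of 0.95 and 0.54. *Rpl10*, which joins the subunit last, had −0.25 ± 0.75 (SE), and *Rpl39*, at the exit tunnel, had −0.82 ± 0.81 (SE), with adjusted *P*-values of 0.83 and 0.47. For each of these 5 genes the ranges of WT and dyW overlapped, and the lowest adjusted *P*-value among them was 0.28 without dyW3 and 0.40 without WT1 and dyW1. Without dyW3 the log2 fold changes of *Rpl5*, *Rpl11*, *Rpl10* and *Rpl39* were −0.13, −1.15, −0.78 and −1.27.

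The P stalk, which recruits the GTPase factors of translation, consists of the products of *Rplp0*, *Rplp1* and *Rplp2*. *Rplp0* was at 1114, 3786, 13319 and 4836 normalized counts in WT1 to WT4. It was at 535, 2215 and 1470 in dyW1 to dyW3, so that 2 dyW values lay above WT1 and below the other 3 WT values. The means were 5764 ± 5275 (SD, n = 4) and 1407 ± 842 (SD, n = 3). The log2 fold change was −1.75 ± 0.82 (SE), with an adjusted *P*-value of 0.13 and an exact two-sided permutation *P*-value of 0.17. With 4 and 3 libraries, this test cannot go below 0.057. The log2 fold change was −1.90 without dyW3 (adjusted *P*-value 0.17) and −1.79 without WT1 and dyW1 (adjusted *P*-value 0.073). With every library at the same total it shrank to −0.60 (adjusted *P*-value 0.54). The study used *Rplp0* as the reference gene of its qPCR, including that of fibers prepared in the same way. *Rplp1* and *Rplp2* had log2 fold changes of −0.49 ± 0.76 (SE) and −0.25 ± 0.83 (SE), with adjusted *P*-values of 0.65 and 0.84, and −1.09 and −0.59 without dyW3. Without WT1 and dyW1 they had −0.29 and −0.36. Of the coding bases of *Rplp0*, 62.6% lie in exons of another annotated gene, against 0% for *Rplp1* and *Rplp2*.

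In the small subunit, 24 of the 31 genes had a negative log2 fold change and 7 a positive one, where 79.6% of all genes tested were negative, and 0 passed the test in either direction at an adjusted *P*-value under 0.05. The median of these 31 genes turned to 0.84 at the same total and to 0.03 without WT4. *Rps27a*, which encodes a fusion of ubiquitin with a ribosomal protein, was at 906, 2279, 5573 and 5321 normalized counts in WT1 to WT4 and at 416, 684 and 1489 in dyW1 to dyW3. Only WT1 lay within the dyW range. The log2 fold change was −1.90 ± 0.72 (SE), with an adjusted *P*-value of 0.074. It was −2.39 without dyW3 (adjusted *P*-value 0.056) and −2.01 without WT1 and dyW1 (adjusted *P*-value 0.046). With every library at the same total it shrank to −0.75 (adjusted *P*-value 0.39). All coding windows of 50 bases of *Rps27a* occur elsewhere in the genome too, and only uniquely mapped reads were counted.

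*Rps2* was the only core gene whose groups did not overlap at the deposited scaling. It was at 938, 1699, 3440 and 1413 normalized counts in WT1 to WT4 and at 324, 639 and 853 in dyW1 to dyW3. Each dyW value lay below each WT value, with means of 1873 ± 1091 (SD, n = 4) and 605 ± 266 (SD, n = 3). The log2 fold change was −1.57 ± 0.56 (SE) with an adjusted *P*-value of 0.061. It was −1.87 without dyW3 (adjusted *P*-value 0.066) and −1.45 without WT1 and dyW1 (adjusted *P*-value 0.079). With every library at the same total it shrank to −0.42 (adjusted *P*-value 0.60), so the size of this difference depended on the scaling.

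The other small subunit genes named for their roles overlapped between the groups. *Rpsa*, whose product is both a small subunit protein and known as a laminin receptor, was at 714, 615, 1087 and 1457 normalized counts in WT1 to WT4 and at 310, 943 and 1398 in dyW1 to dyW3. The log2 fold change was −0.30 ± 0.60 (SE), with an adjusted *P*-value of 0.73. It was −0.75 without dyW3, 0.21 without WT1 and dyW1, and 0.33 without dyW1 alone, so its direction depended on dyW1. *Rps6*, the substrate of the S6 kinases, was at 155, 426, 1629 and 909 in WT and at 180, 824 and 630.0 in dyW normalized counts (log2 fold change −0.30 ± 0.87, SE, adjusted *P*-value 0.82), with −0.54 without dyW3 and −0.25 without WT1 and dyW1. *Rps27*, second in level per kb of coding sequence with 9493 normalized counts per kb, was at 469, 1801, 9161 and 2165 in WT and at 335, 2078 and 935 in dyW. Its log2 fold change of −1.22 ± 0.97 (SE) had an adjusted *P*-value of 0.37, and was −1.28 without dyW3 and −1.24 without WT1 and dyW1. With every library at the same total it was −0.073.

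*Rpl3l* (GRCm39 chr17:24946751-24955119, plus strand), the form of RPL3 found in striated muscle, was at 5.33, 5.39, 8.21 and 18.9 normalized counts in WT1 to WT4 and at 0 in each dyW library. These values stand for 1, 2, 4 and 6 reads, in the libraries of lowest depth. With the 3 reads per library that a count of 0 allows, the dyW mean could reach 0.712 normalized counts. The WT mean was 13.3 times this limit, and 28.1 times the limit that holds without dyW3. These ratios are not lower bounds, since the WT mean rests on few reads and its own error was left out. The log2 fold change was −3.21 ± 0.66 (SE), with an adjusted *P*-value of 0.0064, and the exact two-sided permutation *P*-value was 0.057. The ratios and both *P*-values are given as descriptions, because the gene was tested only through the group in which it was high. Without dyW3 the log2 fold change was −3.21 with an adjusted *P*-value of 0.012, and without WT1 and dyW1 it was −3.40 with 0.021. The call by the first rule was lost in both cases while the fold change was at least as large, and without WT1 and dyW1 limma called 0 of all genes lower by that rule.

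The reads of *Rpl3l* in the WT libraries were set beside those of genes that muscle is not known to use. Over 1388 odorant and vomeronasal receptor genes, the median was 0.631, 2.51, 1.77 and 1.87 reads per kb of exon in WT1 to WT4. *Rpl3l* was at 0.592, 1.18, 2.37 and 3.55 reads per kb of exon in the same libraries, below the receptor median in WT1 and WT2 and above it in WT3 and WT4. In dyW1 and dyW2 the receptor median was 0, as was *Rpl3l*, but in dyW3 it was 1.84 while *Rpl3l* was at 0. The part of this background in the call was not tested. *Rpl3* exceeded *Rpl3l* in every library, for example with 506 against 5.33 normalized counts in WT1 and 409 against 0 in dyW1.

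The groups of the remaining 4 paralogues overlapped. *Rpl22l1* was at 26.7, 218, 1097 and 324 normalized counts in WT1 to WT4 and at 194, 185 and 208 in dyW1 to dyW3, with a narrow range in dyW inside the wide range of WT. *Rps27l*, a p53 target, was at 32, 140, 1323 and 249 in WT and at 145, 1284 and 174 in dyW. It was thus high in 1 library of each genotype, WT3 and dyW2. *Rps4l* was at 0, 35.1, 51.3 and 25.2 in WT and at 4.68, 76.1 and 48.8 in dyW normalized counts, with WT1 and dyW1 lowest. *Rpl7l1*, whose product acts in ribosome assembly, was at 85.3, 99.8, 261 and 94.4 in WT and at 78.0, 176 and 89.9 in dyW. Their log2 fold changes ran from −0.16 for *Rpl7l1* to 0.91 for *Rps4l*, and the lowest adjusted *P*-value of the 4 was 0.67. *Rpl10l* and *Rpl39l* were not analysed here.

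**Figure D4:**
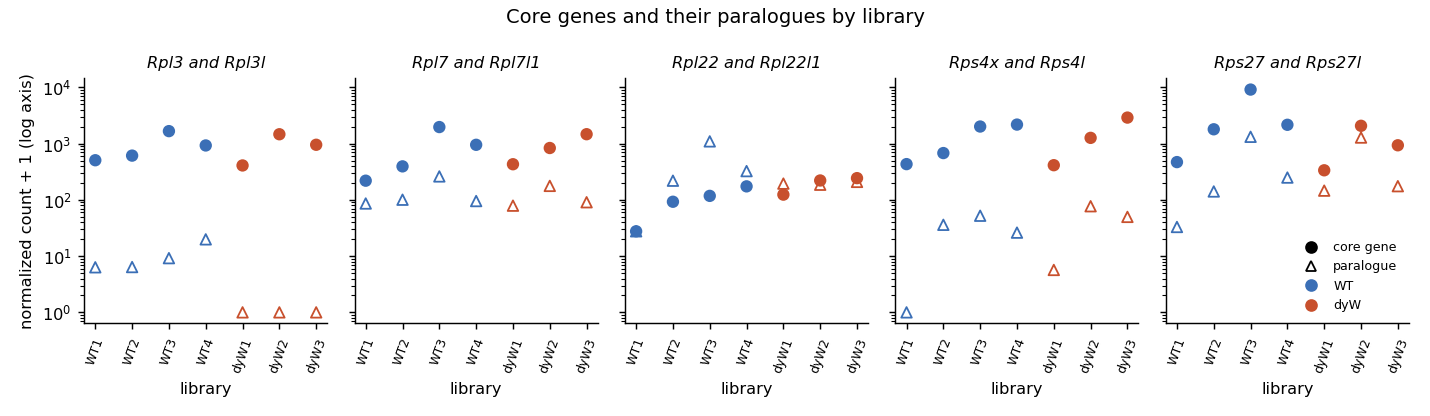
Normalized counts plus 1 (log axis) of 5 core genes (filled circles) and their paralogues (open triangles) in the 7 libraries (horizontal axis), WT in blue and dyW in orange. *Rpl3l* sits at 0 counts in all 3 dyW libraries, and *Rps27l* reaches 1323 in WT3 and 1284 in dyW2 against at most 249 elsewhere.

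Since the core genes rose and fell together from library to library, each was also set against the core median of its own library. The spread became smaller, since the median SD of a core gene on the log2 scale was 1.26 over the WT libraries before and 0.51 after, and over the dyW libraries it was 0.36 after. Of the 77 core genes, 64 differed between the group means by less than 1 log2 unit on this relative scale. Here 5 members did not overlap with all dyW values lower, among them *Rplp0*, *Rps27a*, *Rps2* and *Rpl3l*, and 6 with all dyW values higher, among them *Rpl12*, *Rpl22*, *Rpl27a*, *Rps29* and *Rpl37*. Among all genes tested the shares were 20.6% and 1.59%, but centring on the core median places these members around 0 by construction, so the shares cannot be read against each other. No member passed an adjusted *P*-value under 0.05 by limma with each library divided by its core median, and the lowest values were 0.062 for *Rplp0*, 0.065 for *Rps27a* and 0.066 for *Rpl3l*.

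On that relative scale, *Rps27a* and *Rplp0* lay above the core median in both groups, and *Rpl3l*, at few reads, lay below it. *Rps27a* stood 2.50 ± 0.19 (SD, n = 4) log2 units above the core median in WT and 0.78 ± 0.50 (SD, n = 3) above it in dyW. *Rplp0* stood 3.04 ± 0.41 (SD, n = 4) above the core median in WT and 1.46 ± 0.40 (SD, n = 3) in dyW. The 5 most abundant members of a library took 23.1% to 27.9% of the counts of the 84 genes in WT and 16.7% to 20.5% in dyW, so that this share did not overlap between the groups either. In the other direction, *Rpl22* stood 2.54 ± 0.53 (SD, n = 4) below the core median in WT and 1.22 ± 0.41 (SD, n = 3) below it in dyW. *Rpl37* moved from −0.84 ± 0.29 (SD, n = 4) to 0.14 ± 0.08 (SD, n = 3) relative to the core median. The gaps of *Rpl27a*, *Rpl12* and *Rps29* were narrower, with group means 0.54, 0.62 and 0.30 log2 units apart. These genes were picked because their groups did not overlap on this scale, so the values given here are descriptions.

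**Figure D5:**
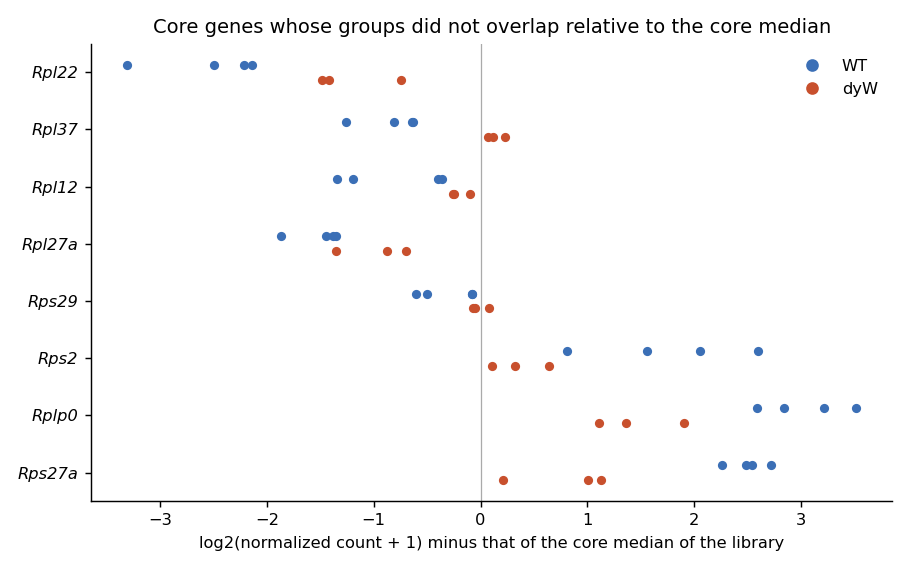
Core genes whose WT (blue) and dyW (orange) libraries did not overlap relative to the core median; the horizontal axis is log2(normalized count + 1) minus the same value of the core median of the library, and each point is 1 library. *Rps27a*, *Rplp0* and *Rps2* lie to the left in dyW, and *Rpl22*, *Rpl37*, *Rpl12*, *Rpl27a* and *Rps29* to the right.

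Across the 77 core genes, Pearson's r between the log2 values of 2 libraries ran from 0.71 to 0.93 within WT, from 0.78 to 0.91 within dyW and from 0.63 to 0.89 between the groups. These are descriptions over genes that share library, depth and base composition, and genes are not replicates. *Rpl4* was among the 5 most abundant members in 6 of the 7 libraries, with 1152 to 6819 normalized counts in the WT libraries and 944 to 3099 in the dyW libraries.

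A few core genes were listed far below the others. *Rpl24* was at 10.7, 5.39, 2.05 and 12.6 normalized counts in WT1 to WT4 and at 10.1, 1.77 and 0 in dyW1 to dyW3. *Rps10* was at 26.7, 35.1, 8.21 and 12.6 in WT and at 9.84, 0 and 0 in dyW, and *Rpl13a* and *Rpl23a* averaged 40.6 and 66.2 normalized counts over the 7 libraries. In GENCODE, 82.9%, 91.6%, 97.5% and 55.6% of the coding bases of *Rpl24*, *Rps10*, *Rpl13a* and *Rpl23a* lie in exons of other genes. *Rps10* had the second lowest log2 fold change of all members, −3.09 ± 1.04 (SE), with an adjusted *P*-value of 0.052. It was −2.51 without dyW3 (adjusted *P*-value 0.093) and −4.05 without WT1 and dyW1 (adjusted *P*-value 0.019). With means of 20.6 in WT and 3.28 in dyW, it cleared the filter of 5 only through WT, the group in which it was high, so these values are a description. It rests on 4 to 13 reads in the WT libraries against 101, 0 and 0 in the dyW libraries. Over the 7 core genes with more than 50% of coding bases in exons of another gene, the median of the mean normalized counts was 66.2, against 654 over the other 70. Of those 7, *Rplp0* and *Rps18* were at 3897 and 1027 normalized counts. The authors' handling of such reads, and thus its part in these values, was not tested.

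The family also has many copies in the genome. For 27 of the 84 members, every coding window of 50 bases occurs elsewhere in GRCm39. Over the 39 core genes with more than 90% of windows elsewhere, the median level was 1023 normalized counts per kb of coding sequence, against 1570 over the 35 core genes with 10% to 90%. Spearman's rho between the 2 measures was −0.25 over the 77 core genes, as a description. The 140 rows of ribosomal protein pseudogenes with names ending in -ps and a number summed to 1.35% to 10.7% of the members' sum in the WT libraries and to 1.45% to 2.05% in the dyW libraries. The value of 10.7% was that of WT1, the library with the fewest reads.

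Genes that build and regulate ribosomes were compared from lists. Of 33 genes of ribosome biogenesis, 2 were lower and 3 higher at an adjusted *P*-value under 0.05 by limma, against 29.6% and 1.01% of all genes, with a median log2 fold change of 0.49 and a range of −3.94 to 2.44. Of 14 translation factors and other genes with TOP mRNAs, 0 were lower and 2 higher, with a median of 0.96 and a range of −0.77 to 1.75. Of 18 genes that control TOP mRNAs and ribosome production, such as those of the mTORC1 pathway, 0 passed in either direction, with a median of 0.15. At the stricter rule, 0 genes of these 3 lists were called. Their medians were above the members' −0.25 at the deposited scaling and above 0.90 when every library was brought to the same total, where they were 1.63, 2.10 and 1.28 in the order given. The myofiber markers had a median of −2.73 in the same test and the fibroblast markers one of 1.29, with fibroblast markers at 0.144% to 0.331% of the counts in the WT libraries and 1.46% to 1.59% in the dyW libraries. The part of this difference in cell makeup in the ribosomal protein values was not tested.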

How the data were processed

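RNA of 4 WT and 3 dyW fetuses was measured with 1 library each, grouped by the genotype in the sample titles; the replicates are separate fetuses. Per the labels and the study's methods, the authors used Cutadapt for trimming and STAR for alignment to GRCm39, counted uniquely mapped reads per gene with FeatureCounts and divided the counts by 1 DESeq2 size factor per library. The authors deposited these normalized counts. Versions, annotation release and strand setting are not given in the sources used here. A second deposited table, with the authors' own fold changes and *P*-values, was not used.

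In each library, 100% of the values were whole multiples of the value of 1 read, within 0.1 read, which gave the reads counted on genes (470804 to 18297106). SMART-seq2 has no molecular identifiers, so limits from 3 reads cover counting error only. Groups were compared with limma (version 3.58.1 under R 4.3.3; lmFit, then trended eBayes) on log2(normalized count + 1), a scale that understates changes of low genes, and with exact two-sided permutation tests over 35 splits. Since the values are not counts, no count model was the main test. Python 3.11.15, numpy 2.4.6, pandas 2.3.3 and matplotlib 3.10.9 were used, and the fit was tested on simulated data. Gene models came from GENCODE release 39 on GRCm39, in which all 84 members have an identifier. Levels per kb use coding length, because annotated transcripts of these short genes include much longer forms.

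The members and all lists were chosen with earlier results of these data known. Named genes are members that passed the test, the 5 lowest and 5 highest log2 fold changes, the 5 highest levels per kb, the paralogues and members fixed by role; *Rps2*, *Rpl6l*, *Rpl24*, *Rpl13a*, *Rpl23a*, *Rpl28*, *Rps18*, *Rpl4* and those named for not overlapping or under another setting were chosen after their values were seen. Alternatives were pseudocounts, filters, scalings, a replicate block and libraries left out. Results of some members are not reported here.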

Additional observations from a re-analysis of the deposited data

Results flagged for a closer look

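The 4 WT libraries were searched for a value standing apart from the other 3, by Dixon's gap test at 95%, in 33 measures of the report, and chance gives about 1 such value in 20. There were 2. *Rps27l* was at 1323 normalized counts in WT3, against 32 to 249 in the other WT libraries. *Rpl7l1* was at 261 normalized counts in WT3, against 85.3 to 99.8 in the others. WT3 was also the library with the highest core median, 1165. Groups of 3, as in dyW, were not searched, although *Rps27l* was at 1284 in dyW2 against 145 and 174 in the other 2.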

How the results depend on the processing

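The number of members called lower, 1, was 1 with a pseudocount of 0.1, with no filter, at an adjusted *P*-value under 0.05 and with voom on recovered reads. It was 0 with a pseudocount of 10, a mean of at least 50, quantile normalization, the same total, a replicate block and without WT1 and dyW1, and 0 to 1 with each library left out (0 without WT2, WT4, dyW1, dyW2 or dyW3). Over all genes, limma called 0 lower with a pseudocount of 10, a mean of at least 50, the same total, without WT1 and dyW1, and without WT2, WT4 or dyW2, 2 with quantile normalization, 1817 without dyW1 and 6717 without dyW3. Where 1 member was called, it called 5169 of all genes lower with a pseudocount of 0.1, 4803 with no filter, 4962 without WT1 and 5320 without WT3. Every setting gave 0 members called higher. The members' median ran from −0.81 to 0.25 with libraries left out (without WT1 and without dyW1) and was 0.03 under the replicate block; block numbers did not pair the libraries (correlations of same-numbered deviations 0.15, −0.05 and −0.09), and the blocked fit, which has no WT4, called 1 of all genes lower against 4830, and the same libraries without the block gave 0. The difference in share of counts, 0.65 percentage points, turned to −1.82 without the 10 most abundant genes and −1.65 without mitochondrial and rRNA genes, by the changed denominators, and ran from 0.08 to 1.23 with libraries left out. Of named genes, direction turned as follows, always without passing the test. Same total gave *Rpl22l1* 1.01, *Rpl7l1* 0.98, *Rplp1* 0.66, *Rplp2* 0.90, *Rpsa* 0.85, *Rps6* 0.85, *Rpl3* 1.15, *Rpl11* 0.52, *Rpl39* 0.33 and *Rpl10* 0.90. Core median scaling gave *Rpl22l1* 0.047, *Rpl7l1* 0.0095 and *Rpl3* 0.17. Without WT4, with or without the replicate block, values were *Rpl22l1* 0.062, *Rplp2* 0.14, *Rpl3* 0.049 and *Rpl10* 0.059. Quantile normalization gave *Rpl3l* 0.064, *Rpl5* −0.56 and *Rpl6l* 1.24, and voom gave *Rpl5* −0.10. Without WT1 and dyW1, *Rpsa* was 0.21 and *Rpl3* 0.27, and with dyW3 left out too, *Rpl7l1* was 0.38 and *Rpl3* 0.58. With single libraries left out, ranges that crossed 0 were −0.81 to 0.12 for *Rpl10*, −1.12 to 0.65 for *Rpl22l1*, −0.41 to 0.51 for *Rpl3*, −0.22 to 0.53 for *Rpl5*, −0.52 to 0.21 for *Rpl7l1*, −1.09 to 0.14 for *Rplp1*, −0.90 to 0.30 for *Rplp2*, −0.31 to 1.61 for *Rps27l*, −0.39 to 2.06 for *Rps4l*, −0.92 to 0.36 for *Rps6* and −0.75 to 0.33 for *Rpsa*. The causes were not tested. Voom and leaving out several libraries were chosen after seeing the data; with dyW2 as the lone dyW library, it is assumed to vary like WT. The planned edgeR and DESeq2 fits were not run. Depth limits *Rpl3l*, *Rps10* and *Rpl24*, which rest on 1 to 13 reads in the WT libraries.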
